A study of Saccharomyces cerevisiae with 6 samples.

Results

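The genes described here encode the cyclins of the *CLN* and *CLB* families of *S. cerevisiae* and the kinase inhibitor Sic1. They were chosen as gene families by their systematic names, and all 10 were found among the 5657 genes of the deposited table, each with 1 of its 5705 probe sets. The table was made from labelled cDNA of total RNA of strain F12, hybridized to Affymetrix yeast arrays. It covers 3 arrays from fermentation with 40% insoluble solids (IS, w/w) and 3 arrays from fermentation with 0% IS. All samples were taken after 4 h in a defined medium with 20 g/L glucose. F12 has an industrial background and was genetically modified for ethanol production from lignocellulose, and glass beads stood in for the solids. The replicates were described as independent RNA replicates, and whether each came from a culture of its own is not given in the sources used here.

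Cyclins bind and activate the cyclin-dependent kinase Cdc28, and successive cyclins carry a budding yeast cell through its division cycle. Cln3 acts first in G1, where it helps to switch on the transcription factor SBF. This raises *CLN1* and *CLN2*, whose products drive the cell through Start and into budding. Clb5 and Clb6 trigger DNA replication, Clb3 and Clb4 take part in spindle formation, and Clb1 and Clb2 drive mitosis. Sic1 holds the Clb-bound kinase inactive until it is phosphorylated and destroyed at the end of G1, and it is made again as cells leave mitosis. Since most of these transcripts come and go within each cycle, a signal from a whole culture is an average over its cells, and the share of cells in a phase and the transcript per cell cannot be told apart.

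All values are the authors' mean log2 signals over the arrays of both conditions, with no spread and no value per array. Therefore, they do not allow a comparison of 40% IS with 0% IS, and where a gene lay in the arrays of either condition alone cannot be read from them. Whether each signal was above background was not tested. Over all probe sets, the authors' mean signal ran from 6.20 to 14.14 on the log2 scale, with a lower quartile of 8.03, a median of 8.79 and an upper quartile of 9.74. Probe sets differ in how strongly they bind their transcript, so that the position of a gene in this range describes its probe set and gives no order of transcript amounts between genes.

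Among the G1 cyclins, *CLN3* (YAL040C) had a mean log2 signal of 10.15, which lies above the upper quartile of the table. *CLN1* (YMR199W) was at 9.24, between the median and the upper quartile. *CLN2* (YPL256C), the paralog of *CLN1*, was at 8.79 and only 0.01 below the median of all probe sets. All 3 G1 cyclins lay above the lower quartile. Whether the probe sets of these paralogs share signal was not tested.

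The 6 B-type cyclins covered a range of mean log2 signals from 7.72 to 9.56, with a median of 8.44. The mitotic cyclin *CLB1* (YGR108W) had a signal of 9.56 and its paralog *CLB2* (YPR119W) one of 8.74. For the spindle cyclins, *CLB3* (YDL155W) was at 9.33 and *CLB4* (YLR210W) at 8.15. *CLB1* and *CLB3* lay above the median of the table, while *CLB2* was 0.06 and *CLB4* 0.64 below it. The S-phase cyclins *CLB5* (YPR120C) and *CLB6* (YGR109C) had mean log2 signals of 8.12 and 7.72. *CLB6* was the only one of the 10 genes below the lower quartile of all probe sets.

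*SIC1* (YLR079W), the inhibitor of the Clb-bound kinase, had a mean log2 signal of 8.19, which is 0.60 below the median of the table and above its lower quartile. Of the 10 genes, 4 or 40% (*CLN1*, *CLN3*, *CLB1* and *CLB3*) had a signal above the median of all probe sets and 6 did not. By the definition of the median, this share is 50% over all probe sets. The median over the 10 genes was 8.76. The plot of mean signals by gene shows these positions.

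**Figure D1:**
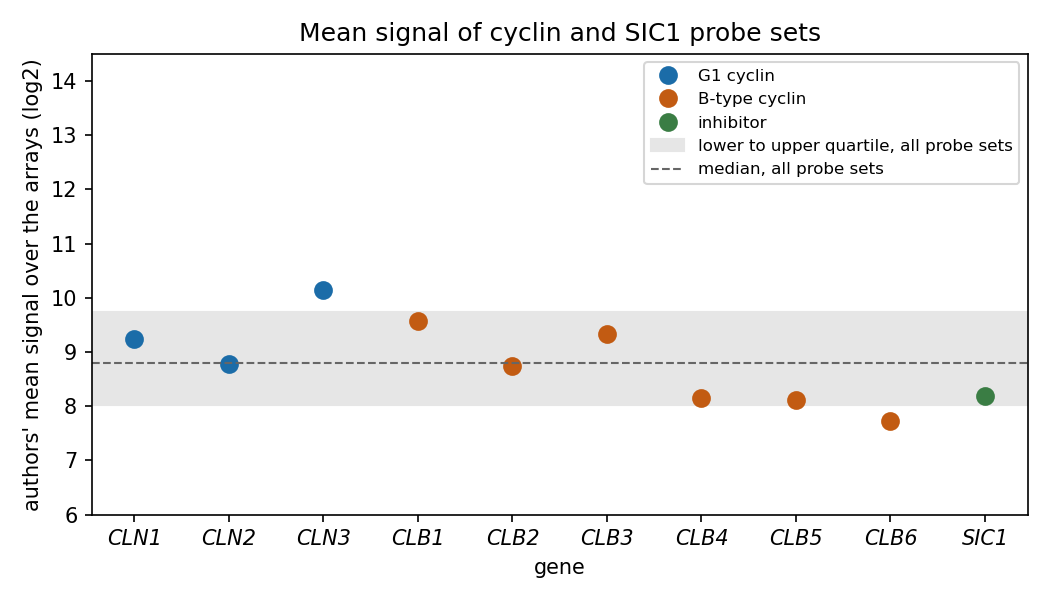
Authors' mean log2 signal over the arrays of both conditions (vertical axis) for the probe set of each gene (horizontal axis), coloured as G1 cyclins, B-type cyclins and the inhibitor. The dashed line is the median of all probe sets (8.79) and the grey band reaches from the lower to the upper quartile (8.03 to 9.74). *CLN3* (10.15) lies above the band, *CLB6* (7.72) below it, and the other 8 genes inside it.

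In the order of genes of the S288C reference (RefSeq assembly R64), the B-type cyclins form 2 neighbouring pairs. *CLB1* is next to *CLB6*, and *CLB2* is next to *CLB5*, so that each pair joins a mitotic with an S-phase cyclin.

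The partners of the cyclins were on the array as well. A list of 25 other cell cycle regulators was found in full, with mean log2 signals from 6.55 to 10.87 and a median of 8.42. Of these, 11 or 44% lay above the median of all probe sets, 7 below the lower quartile and 2 above the upper quartile. Over all 5705 probe sets, 2852 lay above the median, 1427 at or below the lower quartile and 1426 above the upper quartile. *CDC28* (YBR160W), which encodes the kinase that all 9 cyclins bind, had a mean log2 signal of 9.55. Its small subunit *CKS1* (YBR135W) was at 9.42. Among the listed genes that act at Start, *SWI4* (YER111C), which encodes the DNA-binding subunit of SBF, had a mean log2 signal of 7.46. *SWI6* (YLR182W), which encodes the other subunit of SBF, had one of 8.33. *MBP1* (YDL056W), which encodes the DNA-binding subunit of the related factor MBF, was at 7.87, and *WHI5* (YOR083W), which encodes the repressor of SBF, at 7.08. Of these, *SWI6* lay above the lower quartile of the table and the others below it. The Pho85 cyclins of the list were at 9.72 (*PCL1*), 7.47 (*PCL2*) and 8.81 (*PCL9*), and the kinase inhibitor *FAR1* at 6.55. A ubiquitin ligase marks Sic1 for destruction. Of its genes, *CDC4* (YFL009W), whose product recognizes phosphorylated Sic1, had a mean log2 signal of 9.03. *CDC53* (YDL132W) was at 9.65 and *SKP1* (YDR328C) at 10.87. *CDC34* (YDR054C), which encodes the ubiquitin-conjugating enzyme that works with this ligase, was at 9.50. All of these lay above the median. *SWI5* (YDR146C), which encodes a transcription factor of *SIC1*, was at 8.41.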

How the data were processed

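The authors made labelled cDNA from total RNA and hybridized it to GeneChip Yeast Genome 2.0 arrays (6 in all, 3 per condition). The arrays were processed with RMA in Affymetrix Expression Console. The only value used here is the mean log2 signal per probe set over the arrays, as the authors deposited it. The column carries the name that limma gives such a mean. Software versions, and how the 5705 probe sets were chosen, are not given in the sources used here. The table also holds 5 columns of the authors' own comparison of the conditions (log2 difference, moderated t, p-value, adjusted p-value and log-odds), which were not used, and 3 empty columns. Since the table holds no value per array, the comparison by limma planned for such values was not run.

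Systematic names were paired with symbols through RefSeq genes of assembly R64, which held 5692 of the 5705 rows. The number of arrays limits the precision of each mean, and no error can be given. Each mean was set against the quartiles of all rows. The counting steps were tested on simulated data. For genes with several probe sets the highest was taken. As alternatives, the mean and the lowest probe set, 1 row per gene for the median, and the lower quartile as threshold were tried. All 10 genes are named, as are regulators of the list of 25 picked for their role, after their values were seen. The genes and the list were chosen with earlier results of these data known. Python 3.11.15, pandas 2.3.3, numpy 2.4.6 and matplotlib 3.10.9 were used.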

Additional observations from a re-analysis of the deposited data

How the results depend on the processing

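Each of the 10 genes has 1 probe set, so taking the mean or the lowest probe set of a gene left every mean log2 signal as it was. With 1 row per gene, the median of the table was 8.79 and the number of genes above it was again 4. With the lower quartile as threshold in place of the median, 9 of the 10 genes lay above it. Of all 5705 probe sets, 1427 lay at or below this threshold. A lower threshold can only keep or raise such a count, so the change from 4 to 9 is no result about these genes. *CLN2* (0.01 below) and *CLB2* (0.06 below) lie close enough to the median that their side should not be read as a difference. No paired analysis was possible because the values used are means over both conditions. Leaving out replicates, centring each array and a filter on dim probe sets had been planned for the comparison of the conditions and were not run, since that comparison was not made. Promoter motifs and protein identities were not analysed here. Depth has no counterpart in these means, and signal over background was not analysed here.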
